A study of Arabidopsis thaliana with 4 samples.

Results

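Photosystem I is the light-driven complex of the thylakoid membrane that passes electrons from plastocyanin to ferredoxin. Its large subunits PsaA and PsaB bind most of the cofactors of the reaction centre, PsaC carries the terminal iron-sulfur clusters, and PsaI is a small membrane subunit. The chloroplast genome encodes these proteins together with Ycf3, a chaperone-like factor needed for assembly of the complex, while many other subunits and the antenna are encoded in the nucleus. Chloroplast genes are read by a bacterial-type RNA polymerase with plastid-encoded core subunits and by phage-type polymerases encoded in the nucleus, and neighbouring genes are often transcribed together.

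The 6 chloroplast genes described here are psaA, psaB, psaC and psaI of photosystem I, the assembly factor gene ycf3, and rps14, which codes for a protein of the small chloroplast ribosomal subunit. They were chosen by name, with earlier results of these data known. Their probe sets were those whose platform annotation gave 1 gene with 1 of these symbols. The shares set beside the members below therefore describe them and do not test the list. Each gene had 1 probe set, so the members were 6 of 13356 genes with a single-gene probe set and 6 of 69 chloroplast-encoded genes. The genes rps14, psaB, psaA and ycf3 follow each other in this order in the TAIR10.1 gene records, with psaA, psaB and rps14 forming one transcribed cluster. In the same records psaC lies between ndhD and ndhE, and psaI between accD and ycf4. The probe set of rps14 was assigned by gene number to the chloroplast gene, not to its mitochondrial or nuclear namesakes. None of the 6 probe sets carried a suffix for cross-hybridization (0 of 6).

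The arrays came from 3-week-old Arabidopsis thaliana plants of the albino mutant line DS 13-2198-1. The control group (2 arrays) held segregants of normal appearance and the albino group (2 arrays) held albino segregants of the same parental line. Both kinds grew on the same plates, on diluted MS (Murashige and Skoog) medium containing 2% sucrose, at 23 °C with 16 h of light and 8 h of dark. The labels name neither the disrupted gene nor the genotype of the normal segregants, and they do not say how many plants were pooled. The free-text descriptions call every sample wild type, against the titles, so the groups below are those of the titles, and no transcript of a known mutated gene could be used to check them. Values are log2 RMA probe-set summaries. Chloroplast mRNAs mostly lack stable poly(A) tails, and the labels do not name the primer of the cDNA, so how fully the values of the 6 genes follow transcript abundance is not known. RMA subtracts background, gives all arrays of one run the same distribution and combines the probes of a set. The distributions matched within a replicate number (largest gap between quantiles 0.070 and 0.085) and not between numbers (up to 0.355), so a difference is also given within replicate 1 and within replicate 2, each called a pair.

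The members did not move together. On both arrays labelled albino, psaA, psaB, psaC and psaI had higher values than on both arrays labelled control, while rps14 and ycf3 overlapped between the groups. This non-overlap in the higher direction was seen for 4 of 6 members, for 27 of the 69 chloroplast genes (39.1%) and for 16.2% of all 22746 probe sets. The same 4 were the members higher in both pairs. This held for 37 of the 69 chloroplast genes (53.6%) and for 34.6% of all probe sets. At least 2-fold higher in both pairs were psaA and psaB, 2 of 6 members, against 8 of the 69 chloroplast genes and 0.813% of all probe sets. In pair 1 alone 4 members were at least 2-fold higher, with 43.5% of the chloroplast genes and 3.47% of all probe sets. In pair 2 alone 2 were, with 11.6% and 1.06%, and psaI missed this bound narrowly there. No member was lower in both pairs (0 of 6, with 17.4% of the chloroplast genes and 28.5% of all probe sets). None was lower by 2-fold or more in both (1.45% of the chloroplast genes and 0.963% of all probe sets). The median difference of the members, albino minus control on the log2 scale, was 1.27 (1.96 in pair 1 and 0.58 in pair 2). Over all probe sets it was 0.022, and over the other 63 chloroplast genes 0.48.

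None of these differences passed the test across the whole array. With limma (two-sided, Benjamini-Hochberg adjustment over all probe sets), 0 of 6 members and 0% of all probe sets were called in either direction at a threshold of 0.05. At an unadjusted p under 0.05, 3 members were higher, as were 23.2% of the chloroplast genes and 2.68% of all probe sets. Lower were 0 members, 2.90% of the chloroplast genes and 3.08% of all probe sets. With the replicate number as a block, 3 members were higher and 0 lower at this unadjusted bound, with 7.17% and 7.53% of all probe sets. Of the chloroplast genes, 29.0% were higher and 11.6% lower at this bound. In fits that leave out 1 array, a group is a single array, so only differences are given here. The difference ran from 1.98 to 2.88 for psaA and from 1.63 to 2.53 for psaB. The main test rests on 2 arrays a group, so the values below are differences with their errors and not calls, and a gene that misses the threshold is not shown to be unchanged. Nothing in the labels says that the 2 arrays of a group came from separate pools of plants, so the p-values measure only the spread between arrays, which may be technical.

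**Figure D1:**
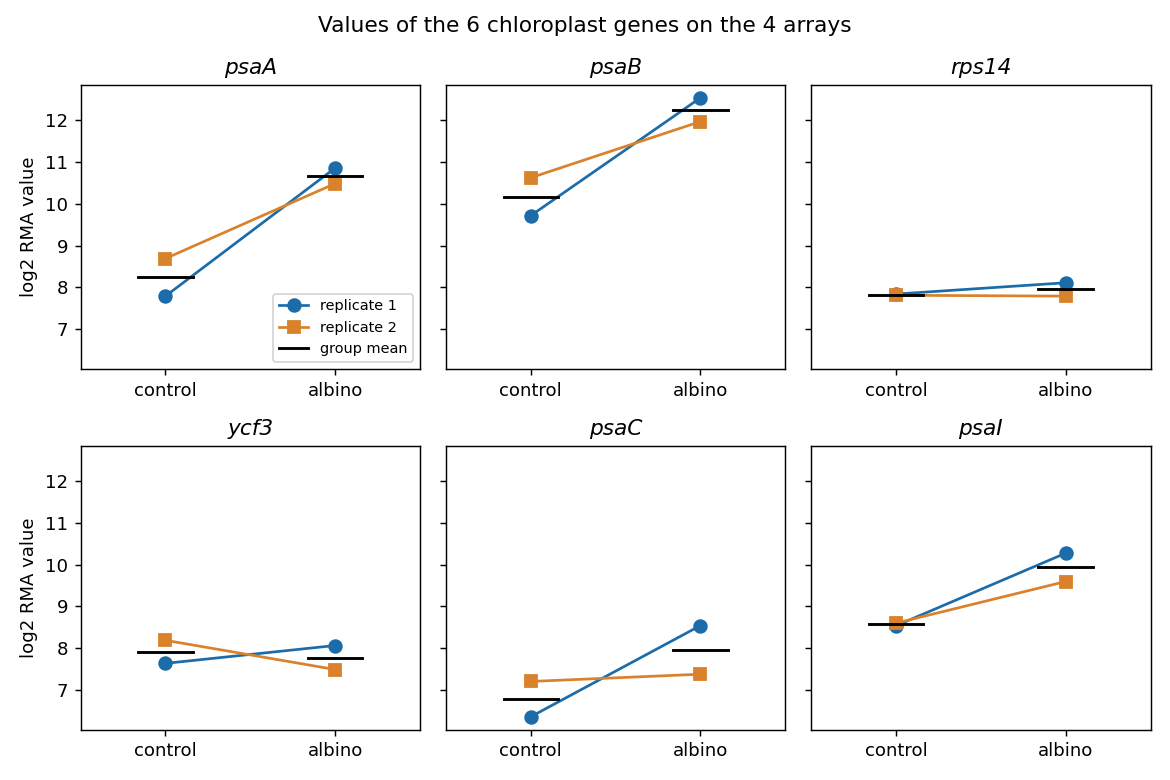
Log2 RMA values (vertical axis) of the 6 genes on the control and albino arrays, with lines joining arrays of the same replicate number and black bars at the group means (n = 2). The albino values of psaA, psaB, psaC and psaI lie above both control values, by a gap of 1.79 for psaA but of only 0.17 for psaC, and those of rps14 and ycf3 do not.

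The psaA gene codes for one of the pair of large reaction-centre proteins. Its values were 7.79 and 8.69 on control arrays 1 and 2, and 10.86 and 10.48 on albino arrays 1 and 2. Both albino arrays thus lay far above both controls, and the arrays of a group lay closer to each other than to the other group. The difference was 2.43 (SE 0.38, 95% interval 1.49 to 3.37), or 5.38-fold, with 8.35-fold in pair 1 and 3.46-fold in pair 2. It was the largest difference among the 69 chloroplast genes in each pair, and ranked 18 of 22746 probe sets over both. Its adjusted p was 0.590.

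The psaB gene, directly beside psaA, codes for the partner protein in the reaction centre. It read 9.72 and 10.62 on the control arrays and 12.53 and 11.97 on the albino arrays. As for psaA, the lower control value and the higher albino value were both those of replicate 1. The difference of 2.08 (SE 0.40, 95% interval 1.08 to 3.08) was 7.04-fold in pair 1 and 2.54-fold in pair 2. Its adjusted p was 0.639, and it ranked 42 of all probe sets and 3 of the 69 chloroplast genes.

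The third gene of the cluster, rps14, showed no such difference. Its values were 7.84 and 7.81 on the control arrays and 8.11 and 7.79 on the albino arrays. The 4 values lay within a narrow band, and the control arrays nearly coincided. The difference was 0.13 (SE 0.26, 95% interval -0.53 to 0.78, adjusted p = 1), with 0.27 in pair 1 and -0.020 in pair 2. The interval leaves room for a moderate change in either direction but lies below the interval of psaA.

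The assembly factor gene ycf3, which is interrupted by introns and lies on the other side of psaA, also had overlapping groups. It read 7.64 and 8.19 on the control arrays and 8.07 and 7.49 on the albino arrays. The albino array was the higher one in pair 1, by 0.43, and the lower one in pair 2, by 0.70. The mean difference was -0.14 (SE 0.34, 95% interval -0.98 to 0.71, adjusted p = 1). The pair 2 value stood low in its array pair, at the 3.49 percentile of all probe sets.

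The psaC gene codes for the iron-sulfur protein on the stromal side, from which electrons pass to ferredoxin. Its values were 6.36 and 7.21 on the control arrays and 8.54 and 7.38 on the albino arrays. The groups did not overlap, but albino array 2 was barely above control array 2. The difference of 1.18 (SE 0.49, 95% interval -0.047 to 2.40, adjusted p = 0.899) was 4.53-fold in pair 1 and 1.13-fold in pair 2. In pair 1 it ranked 7 of the 69 chloroplast genes, and in pair 2 it ranked 31. The difference was 0.59 without albino array 1 and 0.75 without control array 1.

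The psaI gene codes for a small subunit at the rim of the complex. It read 8.54 and 8.60 on the control arrays and 10.27 and 9.59 on the albino arrays. The control arrays lay close together and both albino arrays were clearly above them. The difference was 1.36 (SE 0.32, 95% interval 0.57 to 2.15, adjusted p = 0.662), with 3.33-fold in pair 1 and 1.99-fold in pair 2.

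Differences over the whole array were wider in pair 1 than in pair 2, with SDs of 0.598 and 0.364 over all probe sets. Measured in these SDs, psaA stood at 5.12 in pair 1 and 4.93 in pair 2, and psaI at 2.90 and 2.74. For these genes the smaller difference in pair 2 was thus in proportion to the narrower spread of that pair. It was less so for psaB, at 4.71 and 3.69 SDs. For psaC the values were 3.64 and 0.48, and for ycf3 0.71 and -1.92, so these genes differed between the pairs also on this scale. Whether the pairs differ for psaC or ycf3 could not be tested, since each pair is 1 array a group.

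**Figure D2:**
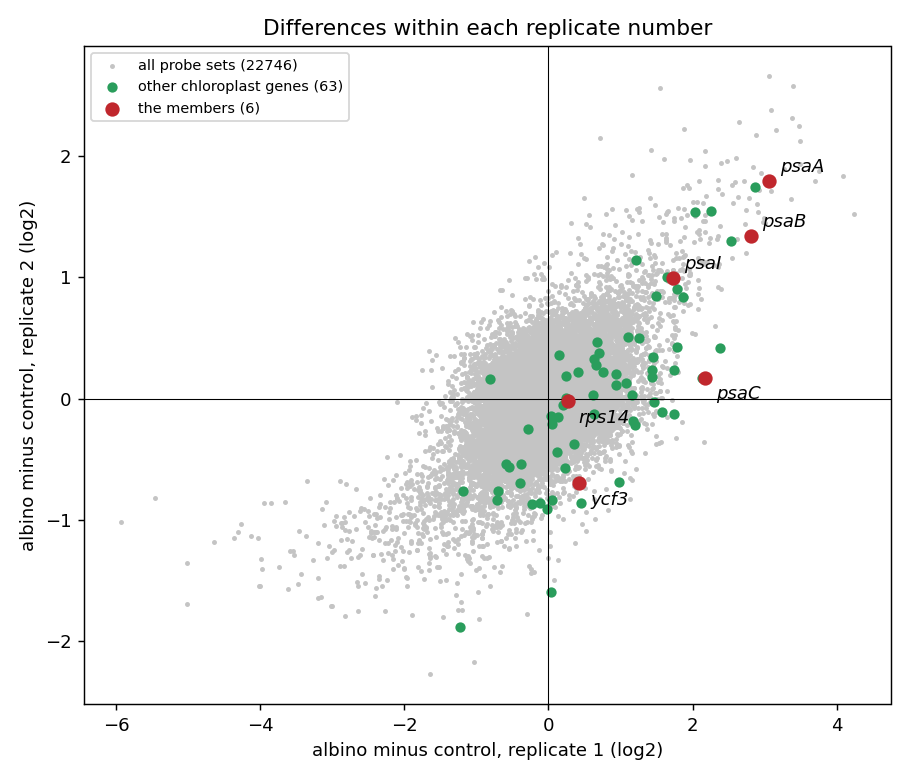
Albino minus control (log2) in replicate 1 (horizontal axis) against replicate 2 (vertical axis), for all 22746 probe sets (grey), 63 other chloroplast genes (green) and the 6 members (red). The genes psaA (3.06 and 1.79), psaB (2.82 and 1.34) and psaI (1.73 and 0.99) lie in the upper right, psaC (2.18 and 0.17) lies near the horizontal axis, and rps14 and ycf3 lie near or below it.

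Ratios between members within an array show unequal changes whatever shift is common to all log2 values of the array. A difference in spread between arrays is not removed. The log2 ratio of psaA to rps14 was -0.049 and 0.88 on the control arrays and 2.74 and 2.69 on the albino arrays. The ratio thus had nearly the same value on both albino arrays, above both controls, and it changed by 2.30. The ratio of psaA to ycf3 went from 0.16 and 0.50 to 2.79 and 2.99, a change of 2.56 with 2.64 in pair 1 and 2.49 in pair 2. This was the steadiest of the larger changes, although neither ycf3 nor psaA alone repeated so closely. The ratio of psaA to psaB, from -1.92 and -1.93 to -1.68 and -1.48, changed by only 0.35. Its control values agreed within 0.01 even though each gene differed between the control arrays by about 0.9. The ratios of psaA to psaC and to psaI changed by 1.25 (0.88 and 1.62 in the pairs) and 1.06 (1.33 and 0.80). Without control array 1 the change of psaA to psaI was 0.64. For each of the 5 ratios all albino values exceeded all control values, and the two-sided exact permutation p was 0.333, also after adjustment over the 5, which is the smallest that 2 arrays against 2 allow.

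The 6 listed genome neighbours of psaC had smaller mean differences than psaC itself, a comparison that was not tested and that did not hold in pair 2. The list leaves out ccsA, the gene beyond ndhD. It differed by 1.35 (1.70 in pair 1 and 0.99 in pair 2), which was above psaC in the mean and in pair 2. The listed neighbours ndhD, ndhE, ndhG, ndhI, ndhA and ndhH code for subunits of the chloroplast NADH dehydrogenase-like complex, which works in cyclic electron flow around photosystem I. Of these 6, 2 were higher in both pairs, 0 were lower in both, and the median difference was 0.41 (0.65 in pair 1 and -0.077 in pair 2). Of all 69 chloroplast genes, 53.6% were higher and 17.4% lower in both pairs, and of all probe sets 34.6% and 28.5%. The differences of the 6 neighbours were 0.58 for ndhD, 0.49 for ndhE, 0.25 for ndhG, 0.33 for ndhI, 0.72 for ndhA and -0.17 for ndhH. In pair 1 the value of 2.18 for psaC lay above all 6, whose highest was 1.47 for ndhA. In pair 2 its 0.17 lay between ndhD at 0.47 and ndhI at 0.03, and ndhE (-0.21) and ndhH (-0.57) differed by more in size.

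Around psaI, the 4 listed neighbours were all higher in both pairs, as were 53.6% of the chloroplast genes and 34.6% of all probe sets. The gene beyond accD, rbcL, is not in this list and was lower in both pairs (-0.59 in pair 1 and -0.54 in pair 2). The median of the 63 chloroplast genes other than the members was 0.48. That of the 4 neighbours was near it, at 0.53 (0.85 in pair 1 and 0.30 in pair 2). They differed by 0.54 for accD, a subunit gene of acetyl-CoA carboxylase, 0.53 for the photosystem I assembly gene ycf4, 0.81 for the envelope protein gene cemA, and 0.49 for petA, which codes for cytochrome f. In each pair psaI was above all 4 of them. The other chloroplast-encoded subunit gene of photosystem I, psaJ, lies in another cluster and had a difference of 1.92 (SE 0.42, adjusted p = 0.645) and was higher in both pairs.

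**Figure D3:**
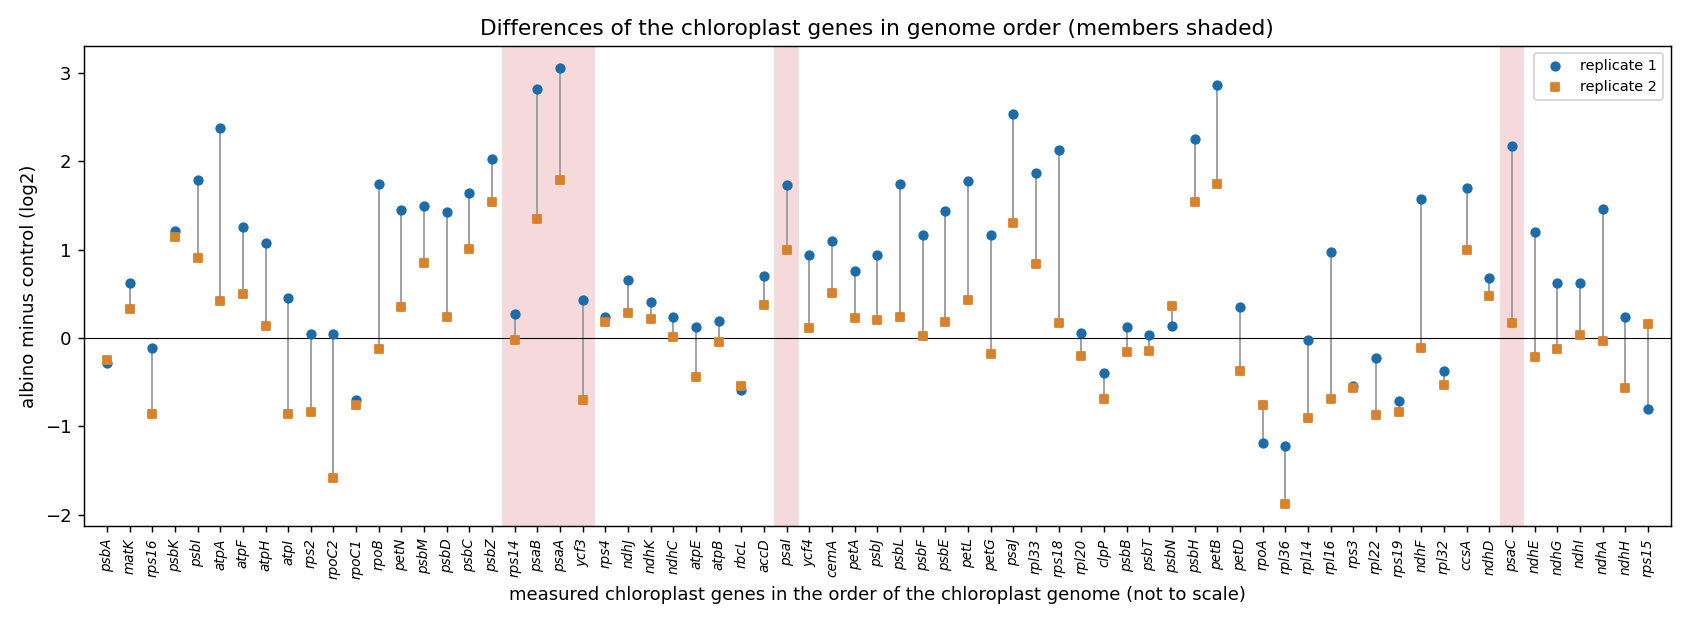
Albino minus control (log2, vertical axis) for the 69 measured chloroplast genes in genome order (horizontal axis, not to scale), as circles for replicate 1 and squares for replicate 2, with the 6 members shaded. The values drop from psaA and psaB to rps14 on one side and to ycf3 on the other, and psaI and psaC stand above their neighbours in replicate 1.

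Among other chloroplast genes for photosynthesis, only petB (2.31) differed by more than psaB. The highest of 15 photosystem II genes was psbH (1.90) and the lowest psbA (-0.27), with a median of 0.83 and 12 higher in both pairs. In the cytochrome b6f complex petB, a core subunit, was followed by petL (1.11, SE 0.81), petN (0.90), petG and petA (0.49 each) and petD (-0.0098). Of these 6 genes only petB had groups that did not overlap. Non-overlap in the higher direction held for 39.1% of the chloroplast genes and 16.2% of all probe sets. The petG difference was 1.17 in pair 1 and -0.18 in pair 2. The ATP synthase genes ran from atpA (1.40), atpF (0.88), atpH (0.60) and atpB (0.07) to atpE (-0.16) and atpI (-0.20). The 10 measured NADH dehydrogenase-like genes, from ndhF (0.73) to ndhH (-0.17), had a median of 0.40. None of the genes of these lists was called (0 of 15, 0 of 6, 0 of 6 and 0 of 10).

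For rps14, the chloroplast genes closest in function are those of other ribosomal proteins. The 14 measured had a median of -0.42 (-0.071 in pair 1 and -0.63 in pair 2), with 3 higher and 7 lower in both pairs, from rpl33 (1.36) to rpl36 (-1.55). The value of 0.13 for rps14 lay above this median and far below that of psaB. The polymerase genes had a median of -0.75, with rpoA at -0.98, rpoC2 at -0.78, rpoC1 at -0.73 and rpoB at 0.80. Of these 4 genes 2 were lower in both pairs and 0 higher in both. The signs differed between pairs 1 and 2 for rpoC2 (0.041 and -1.59) and rpoB (1.74 and -0.13). Of the remaining chloroplast genes, ccsA for cytochrome maturation differed by 1.35, the splicing factor gene matK by 0.48, the protease gene clpP by -0.54 and rbcL by -0.56. None of these genes was called.

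The nuclear side of photosystem I could be followed for few genes, since many probe sets had no gene or several in the annotation used. Of 18 listed subunit and antenna genes 2 had a single-gene probe set, PSAE1 with a difference of 0.020 (SE 0.27) and PSAN, on the lumen side, with 0.38 (SE 0.25). Both code for small peripheral subunits, and 1 of them was higher in both pairs. Of 10 listed nuclear factors for assembly of the complex or expression of its chloroplast genes, 3 were measured. The assembly genes PYG7 and HCF101 differed by 0.13 (SE 0.29) and 0.051 (SE 0.26), and ATAB2, which acts in translation of photosystem mRNAs, by 0.21 (SE 0.27). Among the nuclear genes for chloroplast transcription 1 of 8 was measured, the phage-type polymerase gene RPOTMP, at 0.43 (SE 0.34). None passed the test, and none of the 6 listed electron carrier genes of photosystem I had a single-gene probe set in the annotation used (0 of 6).

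**Figure D4:**
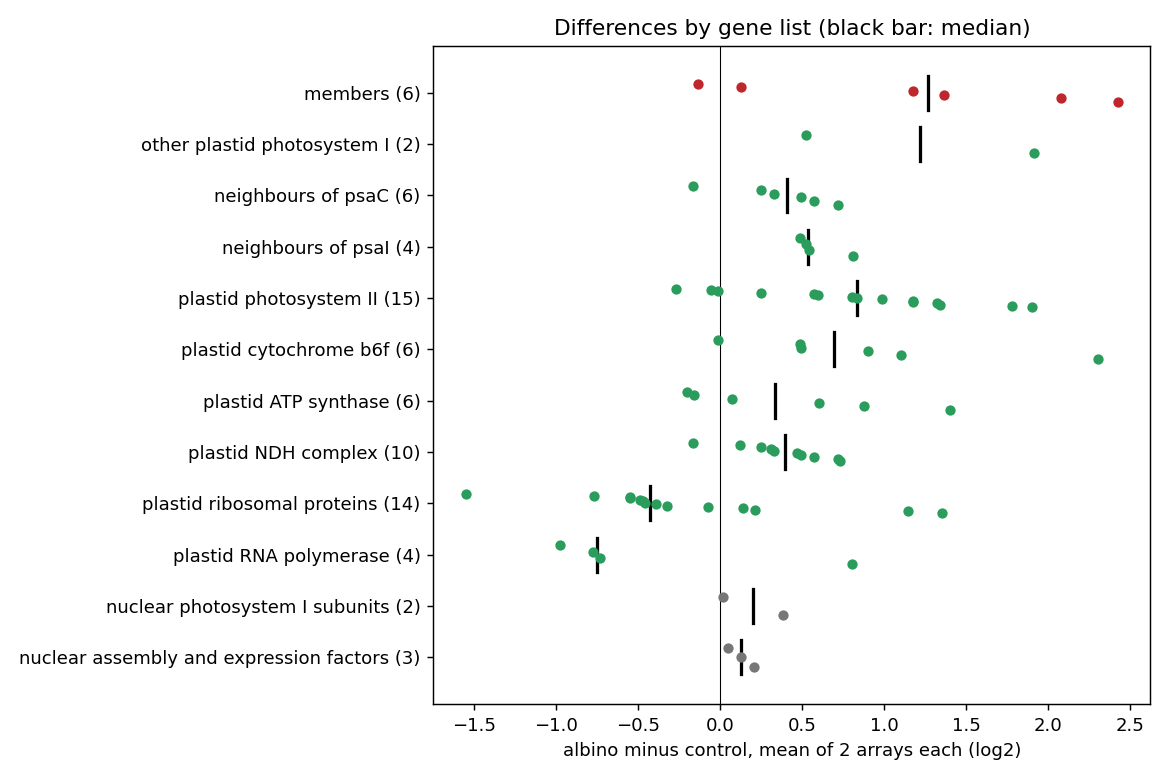
Albino minus control (log2, mean of 2 arrays each, horizontal axis) for each measured gene of 12 lists, with the number of genes in brackets and a black bar at the median of each list. The members (red) run from -0.14 for ycf3 to 2.43 for psaA, and the nuclear genes plotted (grey, photosystem I subunits and assembly or expression factors) lie between 0.020 and 0.38.

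Genes with a similar pattern were taken as those with the smallest Euclidean distance to a member over the within-pair differences, that is over 2 values, among 9448 single-gene probe sets above the dimmest 25%. The closest to psaA were the lectin gene JAL23 (distance 0.13, 2.94 in pair 1 and 1.86 in pair 2), AT5G50335 (0.16), the chloroplast gene petB (0.20) and AT5G57760 (0.31). The closest was AT3G28220 for psaB (0.16), AT3G11320 for rps14 (0.0045) and AT1G53110 for ycf3 (0.058). For psaC it was the chloroplast ribosomal protein gene rps18 (0.053, with 2.13 in pair 1 and 0.17 in pair 2), and for psaI the chloroplast gene ccsA (0.032, with 1.70 and 0.99). Close to no difference many genes lie near each other, as with rps14, so a small distance there singles out little.

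Organ markers on the same arrays bear on the makeup of the samples. Of 4 root markers 3 were measured, and their summed level in log2 was 11.21 and 10.88 on the control arrays and 9.01 and 10.24 on the albino arrays. It was lower on both albino arrays, mostly through PYK10, a beta-glucosidase of roots, with a difference of -1.48 (SE 0.47, adjusted p = 0.750). The root hair markers were dim, add little to the sum, and differed by -0.28 for EXPA7 (SE 0.35) and by 0.22 for EXPA18 (SE 0.27). In pairs 1 and 2 EXPA7 differed by -0.70 and 0.14 and EXPA18 by 0.18 and 0.27. Neither was thus lower in both pairs, and the lower sum rests on PYK10. Of 5 leaf markers 1 was measured, the Rubisco activase gene RCA, at 12.28 and 12.18 on the control and 12.54 and 12.34 on the albino arrays. Of 3 meristem markers 1 was measured, CLV3, at 5.11 and 3.59 on the control and 4.44 and 3.86 on the albino arrays. The part of organ makeup in the differences of the members was not tested. In such bulk samples fewer cells of a type and less RNA per cell cannot be told apart.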

How the data were processed

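Total RNA of 4 samples, 2 per group, was hybridized as biotin-labelled cRNA. The values deposited are log2 probe-set summaries, made by the authors with RMA per the submitters' processing notes; the sources used here name no software version and no primer for the cDNA. Depth has no meaning for arrays, and their number limits the precision. Probe sets were named by the platform annotation, with symbols updated through gene numbers to TAIR10.1 records: 13513 of 22746 had 1 gene, 503 several and 8730 none. Of a gene's probe sets the one with the highest mean was used.

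Differences were fitted with limma 3.58.1 in R 4.3.3 (lmFit, eBayes, 2 residual degrees of freedom) over all probe sets. On simulated data with 2 arrays a group the fit missed every change set at 2-fold or 4-fold. It called most but not all of those set at 8-fold. The simulated noise was independent between arrays, while the real deviations correlated within a replicate number. The fit may therefore miss more or fewer changes on the real arrays. Intervals are 95% intervals of the moderated fit. The members and gene lists were chosen with earlier results of these data known. The rule for named genes took all members, the highest and lowest gene of each list (all genes of lists with up to 6 measured), and the genes closest to each member in within-pair differences. Alternatives were quantile, cyclic loess and centring steps, filters on the dimmest 25% or 50%, other priors, a replicate block, left-out suffixed probe sets and left-out arrays. Chloroplast sequences are not shown here.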

Additional observations from a re-analysis of the deposited data

How the results depend on the processing

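No call was made, and each member stayed uncalled under the rescalings, centrings, filters, priors and replicate block. The filters, priors and block alter the error of a difference but not the difference itself. Only the rescalings and centrings could turn a direction, and none did. Over the 11 settings together psaA ran from 2.41 to 2.43 with limma adjusted p from 0.138 to 1, and psaC from 1.15 to 1.18. The 0.138 came from the replicate block with a trended and robust prior, which was not planned. Among the planned settings the lowest limma adjusted p of psaA was 0.210, with the trended and robust prior alone. With the replicate block the numbers of probe sets and members called were again 0, while 1631 probe sets were higher and 1712 lower by an unadjusted p under 0.05. The limma adjusted p was then 0.217 for psaA, psaB and psaI, 0.404 for psaC, 0.757 for rps14 and 0.872 for ycf3. The labels do not say that a replicate number pairs the samples; deviations from the group means correlated at 0.662 over probe sets within a number. With no variance moderation 1 probe set was called lower. Over the 4 fits without 1 array, in which the lone array of a group is assumed to vary like the other group, probe sets called ran from 0 to 30 higher and from 0 to 152 lower, and members called from 0 to 2. The highest numbers all came without albino replicate 2, where the 2 members were psaA (difference 2.61) and psaB (2.36). Over the same fits psaA ran from 1.98 to 2.88, psaB from 1.63 to 2.53, psaC from 0.59 to 1.76, psaI from 1.03 to 1.70, rps14 from -0.034 to 0.28 and ycf3 from -0.42 to 0.15. The direction of rps14 turned without albino replicate 1 (-0.034), and that of ycf3 without control replicate 2 (0.14) or albino replicate 2 (0.15). For psaC the difference was 0.59 without albino replicate 1 and 0.75 without control replicate 1. The causes were not tested. The replicate block with a trended and robust prior was added after seeing the data.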
